A study of Homo sapiens with 6 samples.

Results

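Of the 10 genes described here, TGM1, TGM3, TGM5, ALOX12B, KLK5, KLK7, CDSN and CALML5 encode enzymes and proteins of epidermal cornification. GRHL1 and GRHL3 encode Grainyhead-like transcription factors. All 10 genes were chosen by name. A transcript cluster, the set of array probes that stands for 1 gene, was taken for each of the 10 symbols from 22411 genes with a single symbol on the platform. CDSN had 6 clusters, of which the 1 with the highest mean over the 6 arrays was kept. The study used HaCaT, a human keratinocyte line that became immortal spontaneously in culture, in medium with serum. Cells received 1 X-ray dose of 20 Gy, delivered at 1.15 Gy per min, or mock irradiation (0 Gy), and were collected 48 h later. Irradiated and mock groups held 3 cultures each, numbered alike and called biological replicates in the labels, with 1 array per culture. Both groups are the same immortalised line, so neither is a stratified epidermis.

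Cornification turns the outermost living keratinocytes into dead, cross-linked corneocytes. Transglutaminases join proteins such as involucrin, loricrin and small proline-rich proteins into the cornified envelope, lipoxygenases process the lipids that are bound to it, and kallikrein proteases cut the corneodesmosomes that hold corneocytes together so that they can be shed. Grainyhead factors are conserved regulators of surface epithelia, and in mice transglutaminase 1 is a known target of GRHL3.

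Signals are on a log2 scale, so a difference of 1 is a change of 2-fold, and levels of different genes are not compared because each gene has its own probes. A gene was called above background when its mean over 6 arrays exceeded 6.01, the mean of the brightest of 23 background control sets. Of the 10 genes, 5 passed (TGM1, KLK5, KLK7, GRHL1 and GRHL3) and 5 did not (TGM3, TGM5, ALOX12B, CDSN and CALML5). Just inside the limit were KLK7 at 6.17, GRHL3 at 6.23 and GRHL1 at 6.28. The highest of the genes that did not pass were CALML5 at 5.52 and ALOX12B at 5.06. KLK7 exceeded the limit on 2 of 6 arrays and GRHL1 and GRHL3 on 4 each. Array medians over all clusters ran from 4.62 to 4.66 in irradiated cultures and from 4.53 to 4.63 in mock cultures, and correlations between arrays from 0.977 to 0.993. Keratinocyte markers were above the limit in 6 of 6 matched cases and simple epithelial keratins in 3 of 3. Markers of fibroblasts, melanocytes, endothelium and leukocytes were above it in 0 of 15, with mean signals per cell type of 3.99 to 4.57 on irradiated arrays and 3.76 to 4.50 on mock arrays.

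**Figure D1:**
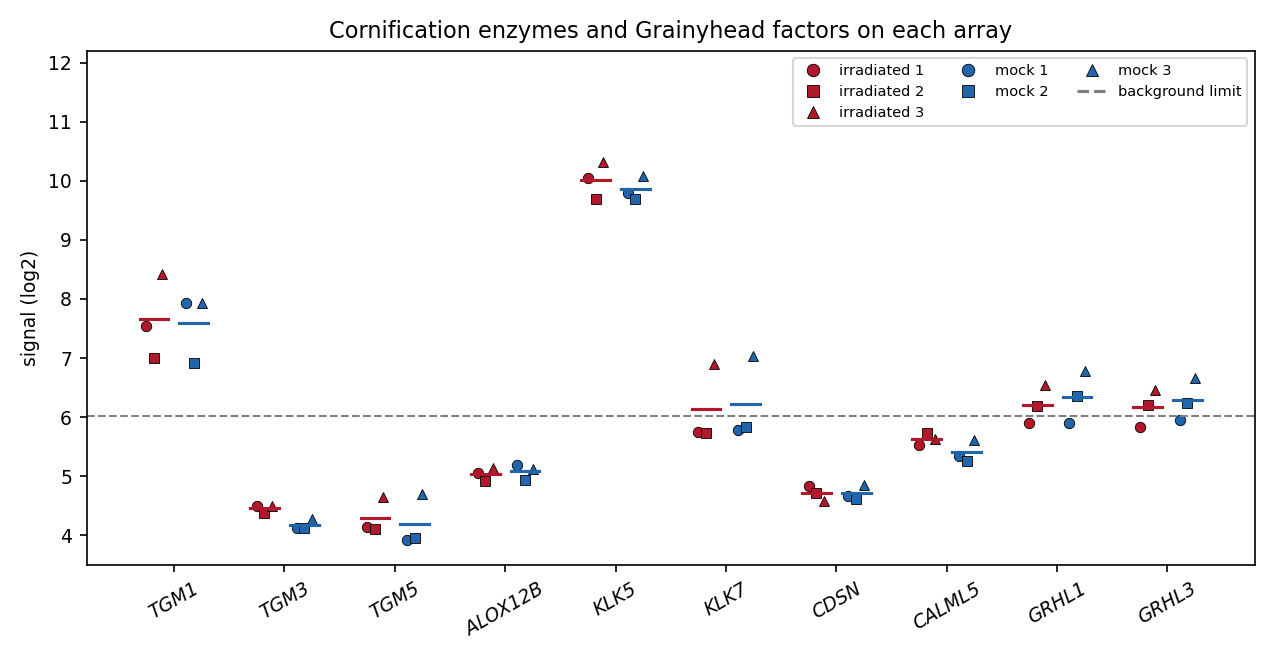
Signal of the 10 genes (log2) on each array, with irradiated cultures in red to the left of mock cultures in blue, symbols for the replicate number, horizontal bars for group means and a dashed line at the background limit of 6.01. TGM1 and KLK5 lie above the limit on all 6 arrays, and the cultures numbered 3 (triangles) are the highest of both groups for KLK7, GRHL1 and GRHL3.

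No change of any of the 10 genes after irradiation passed the test. With cultures compared by replicate number, limma called 0 of 10 genes over all 67528 transcript clusters (adjusted p from 0.248 to 0.995), where 0 clusters were called in all (0%). At an unadjusted p under 0.05 the paired limma test counted 1 of the 10 genes (TGM3), against 15.2% of clusters, and the unpaired limma test also 1, against 7.14%. Over the 9324 genes with a single symbol above the background limit, the paired limma test called 467 (5.01%), 121 higher (1.30%) and 346 lower (3.71%), but 0 of the 5 genes tested here (adjusted p from 0.255 to 0.833, and 0 at an unadjusted p under 0.05, against 28.9%). Without pairing by number the same test called 0 of the 9324 genes (0%, lowest adjusted p 0.195). The differences ran from -0.13 for GRHL1 to 0.29 for TGM3, with a median of 0.030, against a median of 0.014 over all 22411 genes. In whole cultures, fewer cells that make a transcript and less of it per cell cannot be told apart.

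**Figure D2:**
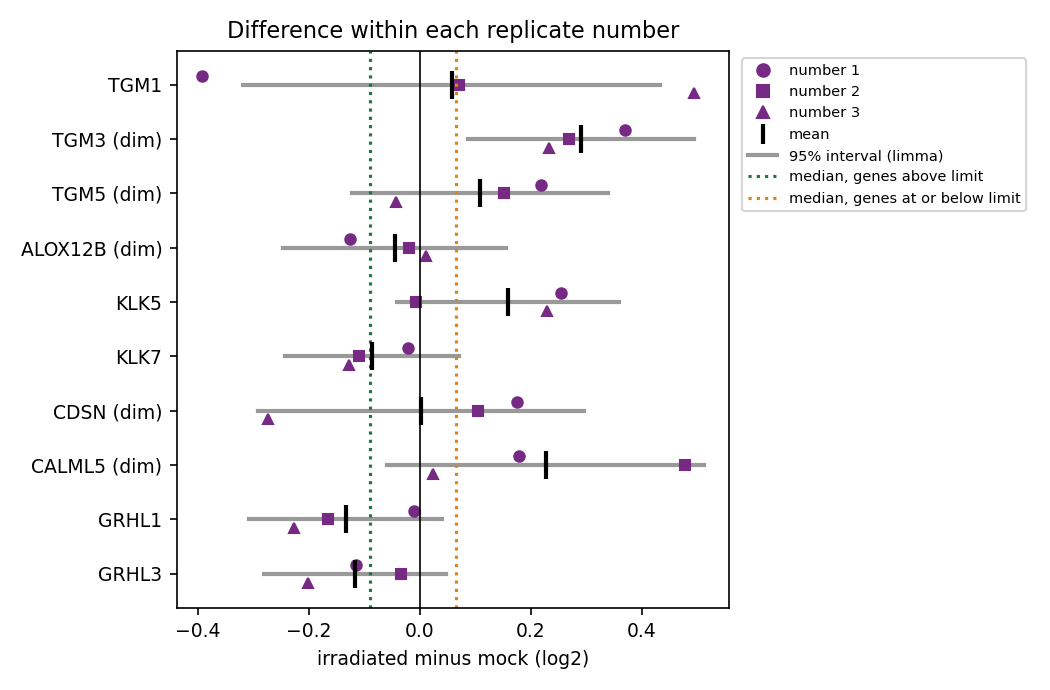
Difference between irradiated and mock cultures (log2) within each replicate number (purple symbols), the mean (black bar) and the 95% interval of the paired limma fit (grey), with genes below the background limit marked as dim. Dotted lines give the median difference of genes above the limit (green, -0.089) and at or below it (orange, 0.066), and the interval lies wholly on 1 side of 0 for TGM3 only.

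Transglutaminases gave 1 clearly measured gene. TGM1, the membrane-anchored transglutaminase whose loss causes lamellar ichthyosis, measured 7.55, 6.99 and 8.42 in irradiated cultures 1, 2 and 3, against 7.94, 6.92 and 7.93 in mock cultures 1, 2 and 3. The lowest culture of each group was number 2, and the groups overlapped. Within numbers 1, 2 and 3 the differences were -0.39, 0.071 and 0.49, so the direction itself varied between cultures. The mean difference was 0.058 ± 0.16 (SE of the paired limma fit over genes above the limit, n = 3 pairs), with a 95% interval from -0.32 to 0.43 and an adjusted p of 0.833. This is the widest interval of the 5 genes above the limit. The sign was not stable, since the difference was -0.16 without both cultures numbered 3.

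TGM3, a transglutaminase of the upper epidermis and hair follicle, was the only 1 of the 10 genes whose groups did not overlap. It measured 4.50, 4.39 and 4.50 in irradiated cultures 1, 2 and 3, against 4.13, 4.12 and 4.27 in mock cultures 1, 2 and 3. All irradiated values were above all mock values, and all lay far below the background limit. The means were 4.46 ± 0.066 in irradiated and 4.17 ± 0.086 in mock cultures (SD, n = 3 each), and the difference was 0.29 ± 0.079 (SE), with a 95% interval from 0.088 to 0.49 and an adjusted p of 0.248 in the paired limma test over all clusters. Dim genes in general read higher after irradiation. Of the 13087 genes at or below the limit, 16.1% had irradiated values entirely above mock values and 36.4% were higher in all 3 pairs, and their median difference was 0.066. TGM5, a transglutaminase whose loss causes acral peeling skin, measured 4.14, 4.11 and 4.65 in irradiated cultures and 3.92, 3.96 and 4.70 in mock cultures 1, 2 and 3. Both cultures numbered 3 stood above the other 4, although below the limit, and the difference of 0.11 ± 0.090 (SE) did not pass (adjusted p = 0.583 in the paired limma test).

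The promoter windows of TGM3 and TGM5, from RefSeq on GRCh38.p14, are shown because they hold the matches named in the next sentences. Each window runs from 250 bases before to 50 bases after a transcript start and is read 5′ to 3′ on the gene's strand, and capitals mark matches to the motifs searched on both strands. TGM3 lies at chr20:2295751-2296050 on the plus strand and TGM5 at chr15:43266879-43267178 on the minus strand.
TGM3: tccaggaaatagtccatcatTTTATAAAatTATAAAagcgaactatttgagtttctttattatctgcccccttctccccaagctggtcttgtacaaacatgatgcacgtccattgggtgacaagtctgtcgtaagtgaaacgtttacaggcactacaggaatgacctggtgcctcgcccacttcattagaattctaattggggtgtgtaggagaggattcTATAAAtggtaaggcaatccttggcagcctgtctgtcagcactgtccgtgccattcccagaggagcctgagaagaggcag
TGM5: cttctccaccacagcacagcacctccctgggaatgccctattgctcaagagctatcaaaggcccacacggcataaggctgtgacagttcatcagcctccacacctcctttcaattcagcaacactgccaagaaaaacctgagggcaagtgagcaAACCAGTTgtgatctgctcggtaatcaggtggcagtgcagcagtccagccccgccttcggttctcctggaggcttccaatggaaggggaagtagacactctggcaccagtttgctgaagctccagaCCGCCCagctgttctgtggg
The TGM3 window holds 4 matches to the TATA box motif TATAAA, 1 of them starting 30 bases before the start site, and the first 2 overlap each other. The TGM5 window holds 1 match to AACNGGTT, a relaxed form of the Grainyhead consensus AACCGGTT, starting 96 bases before the start site, and 1 GC box (GGGCGG), starting 30 bases after the start site. TATAAA was in 11.5% of the 35116 human promoter windows, AACNGGTT, which includes the full consensus, in 1.73%, and GGGCGG in 45.0%. The full consensus AACCGGTT was in 0.134% of them and in 0 of the 12 windows, which came from 9 of the 10 genes. The AP-1 motif TGANTCA was in 7.71% and also 0 of 12. TGM1 had no window, so its promoter was not searched.

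ALOX12B, the 12R-lipoxygenase that acts on the acylceramides of the corneocyte lipid envelope, stayed below the limit. It measured 5.06, 4.92 and 5.13 in irradiated cultures 1, 2 and 3, against 5.19, 4.94 and 5.12 in mock cultures 1, 2 and 3. The groups covered almost the same range, and the difference of -0.045 ± 0.078 (SE, 95% interval -0.25 to 0.16) did not pass (adjusted p = 0.801 in the paired limma test). Its sign depended on scaling, being 0.054 when each array was centred on the genes above the limit.

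Both kallikreins were above the limit on average. KLK5, a trypsin-like protease that can activate itself and KLK7, measured 10.05, 9.68 and 10.31 in irradiated cultures 1, 2 and 3, against 9.79, 9.69 and 10.08 in mock cultures 1, 2 and 3. Irradiated cultures 1 and 3 read higher than their mock partners by 0.26 and 0.23, while number 2 differed by -0.0073, and the groups overlapped. The difference was 0.16 ± 0.083 (SE), with a 95% interval from -0.041 to 0.36 and an adjusted p of 0.255, the lowest of the 5 genes tested above the limit. KLK7, a chymotrypsin-like protease that cuts corneodesmosin and desmocollin 1, measured 5.76, 5.73 and 6.91 in irradiated cultures 1, 2 and 3, against 5.78, 5.84 and 7.03 in mock cultures 1, 2 and 3. Number 3 was high in both groups, by more than 1 log2 unit over the other cultures of its group, and these 2 arrays alone lay above the limit. KLK7 was lower in all 3 pairs, by -0.021, -0.11 and -0.13, as were 41.9% of genes above the limit. The mean difference of -0.086 ± 0.065 (SE, 95% interval -0.24 to 0.070) did not pass (adjusted p = 0.413), and it was 0.013 when each array was centred on the genes above the limit.

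KLK7 has 3 RefSeq start sites with overlapping windows, of which the window at chr19:50983868-50984167 on the minus strand is shown because KLK7 had the lowest adjusted p of the 5 genes above the limit in the test of replicate number.
KLK7: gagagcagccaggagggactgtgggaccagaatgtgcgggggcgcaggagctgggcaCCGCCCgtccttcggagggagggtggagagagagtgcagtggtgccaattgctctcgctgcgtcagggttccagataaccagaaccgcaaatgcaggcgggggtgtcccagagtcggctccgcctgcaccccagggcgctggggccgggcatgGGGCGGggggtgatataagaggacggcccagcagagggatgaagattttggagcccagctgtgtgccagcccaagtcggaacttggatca
It holds 2 GC boxes, starting 193 and 40 bases before the start site. The KLK5 window held none of the 5 motifs.

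Corneodesmosin and calmodulin-like protein 5 were both below the limit. CDSN, the corneodesmosome adhesion protein that kallikreins cut, measured 4.84, 4.71 and 4.58 in irradiated cultures 1, 2 and 3, against 4.67, 4.61 and 4.85 in mock cultures 1, 2 and 3 on the kept cluster. The groups overlapped and the difference was 0.0022 ± 0.11 (SE, adjusted p = 0.995 in the paired limma test), with -0.071 after quantile normalization. The kept cluster carries the name of an MHC haplotype, as do 4 others, whose differences ran from -0.036 to 0.079. The cluster named for chromosome 6 itself read differently. It was higher in all 3 pairs, by 0.25, 0.37 and 0.12, with no overlap between groups and a difference of 0.25 ± 0.090 (SE, adjusted p = 0.310 in the paired limma test), at the lowest mean signal of the 6 (4.01). Of genes at or below the limit, 36.4% were higher in all 3 pairs and 16.1% had irradiated values entirely above mock values. All 6 clusters share a gene and are not independent. PSORS1C1, whose interval in the annotation contains that of CDSN, averaged 4.89 ± 0.034 in irradiated and 4.85 ± 0.031 in mock cultures (SD, n = 3 each).

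**Figure D3:**
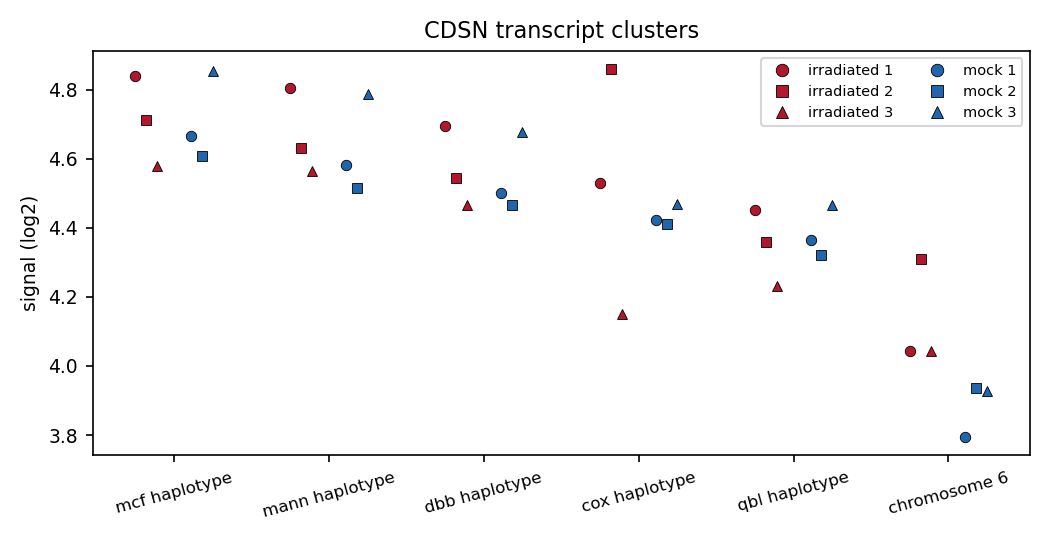
Signal (log2) of the 6 CDSN transcript clusters on each array, irradiated in red to the left of mock in blue, with symbols for the replicate number. On the 5 haplotype clusters irradiated culture 3 is the lowest irradiated value. On the chromosome 6 cluster all irradiated values lie above all mock values, as in 16.1% of genes at or below the limit.

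CALML5, a calcium-binding protein of differentiating keratinocytes, measured 5.53, 5.73 and 5.63 in irradiated cultures 1, 2 and 3, against 5.35, 5.25 and 5.61 in mock cultures 1, 2 and 3. It was higher in all 3 pairs, by 0.18, 0.48 and 0.024, although irradiated culture 1 lay below mock culture 3. The difference of 0.23 ± 0.11 (SE, 95% interval -0.059 to 0.51) did not pass (adjusted p = 0.399 in the paired limma test). CALML5 and TGM3 were thus the 2 of 5 dim genes higher in all pairs, against 36.4% of all dim genes.

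The Grainyhead factors had similar profiles over the arrays. GRHL1, which in mice is needed for normal desmosomes of epidermis and hair, measured 5.89, 6.18 and 6.55 in irradiated cultures 1, 2 and 3, against 5.90, 6.35 and 6.78 in mock cultures 1, 2 and 3. GRHL3, which in mice is needed for the epidermal barrier and for wound closure, measured 5.83, 6.21 and 6.47 in irradiated cultures 1, 2 and 3, against 5.95, 6.25 and 6.67 in mock cultures 1, 2 and 3. For both genes number 1 was lowest and number 3 highest in each group, and the groups overlapped. Both were lower in all 3 pairs, as were 41.9% of genes above the limit. Pair differences were -0.0098, -0.16 and -0.23 for GRHL1 and -0.11, -0.034 and -0.20 for GRHL3. The differences of -0.13 ± 0.072 for GRHL1 (95% interval -0.31 to 0.040) and -0.12 ± 0.068 for GRHL3 (95% interval -0.28 to 0.047) did not pass (SE, adjusted p = 0.266 and 0.300 in the paired limma test over genes above the limit). Genes above the limit had a median difference of -0.089. With each array centred on those genes, GRHL1 lay at -0.035 and GRHL3 at -0.018.

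The windows of GRHL1, at chr2:9951443-9951742, and of the upstream of 2 GRHL3 start sites, at chr1:24319107-24319406, both on the plus strand, are shown because these genes had nearly the same profile over the arrays.
GRHL1: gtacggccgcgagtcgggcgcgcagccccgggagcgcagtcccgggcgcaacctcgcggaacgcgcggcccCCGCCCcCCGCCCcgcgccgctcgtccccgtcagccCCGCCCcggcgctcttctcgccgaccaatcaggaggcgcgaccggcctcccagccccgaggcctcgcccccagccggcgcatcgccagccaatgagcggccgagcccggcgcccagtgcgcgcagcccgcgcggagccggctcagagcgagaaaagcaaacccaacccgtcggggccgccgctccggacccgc
GRHL3: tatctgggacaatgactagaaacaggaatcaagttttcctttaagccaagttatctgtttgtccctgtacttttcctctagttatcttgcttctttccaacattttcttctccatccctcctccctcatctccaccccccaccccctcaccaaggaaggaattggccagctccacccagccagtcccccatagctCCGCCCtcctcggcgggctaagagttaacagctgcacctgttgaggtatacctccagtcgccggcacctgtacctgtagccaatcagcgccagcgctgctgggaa
GRHL1 has 79.7% G and C and 3 GC boxes, starting 143 to 179 bases before the start site, and GRHL3 has 53.0% G and C and 1 GC box, starting 55 bases before it, against a median of 58.7% G and C over all windows. Neither window holds AACNGGTT or TATAAA.

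The genes were also described by replicate number. Numbers 1, 2 and 3, each averaged over an irradiated and a mock array, stood at 7.74, 6.96 and 8.17 for TGM1, 9.92, 9.69 and 10.20 for KLK5 and 5.77, 5.78 and 6.97 for KLK7. They were 5.90, 6.27 and 6.66 for GRHL1 and 5.89, 6.23 and 6.57 for GRHL3. Number 3 was highest in 9 of the 10 genes, CDSN being the exception, against 47.1% of all 22411 genes. KLK7 passed the limit only through number 3, and GRHL1 and GRHL3 lay below it in number 1. Contrasts by number for the 5 genes above the limit are therefore not independent of that limit. The spread between numbers, highest minus lowest mean, ran from 0.51 (KLK5) to 1.22 (TGM1) among these 5 genes, against a median of 0.42 over genes above the limit. It exceeded the size of the dose difference in 8 of 10 genes, TGM3 and CALML5 being the exceptions, and in 78.6% of all genes, a range over 3 means being wider by construction than a difference between 2.

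A moderated F test of the replicate number in the same limma fit, over all 22411 genes with no limit on signal, called 6 of the 10 genes, against 25.1% of all genes. Adjusted p-values were 0.00193 for KLK7, 0.00740 for GRHL1, 0.00817 for GRHL3, 0.0103 for TGM5, 0.0243 for TGM1 and 0.0408 for KLK5. Over the 9324 genes above the limit the F test called 61.0%, the 5 genes among them (adjusted p from 2.12e-04 for KLK7 to 0.0141 for KLK5). KLK7 passed the limit only through number 3, where it is high, and GRHL1 and GRHL3 lay below it in number 1, so that count is not independent of the limit. Over the same 9324 genes the test called all 5 without replicate 1 (52.5% of genes). It called KLK7, GRHL1 and GRHL3 without replicate 2 (38.6%), and TGM1, GRHL1 and GRHL3 without replicate 3 (33.3%). These calls are not independent of the limit either. Without replicate 2 the test compared numbers 1 and 3, the contrast on which the passing of KLK7 depended and in which GRHL1 and GRHL3 straddled the limit. KRT1, the early differentiation keratin, moved with the number far more widely, at 5.96, 5.53 and 16.5 in irradiated cultures 1, 2 and 3, against 6.36, 6.36 and 16.9 in mock cultures 1, 2 and 3. The part of the state of the cultures in the values of the 10 genes was not tested.

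**Figure D4:**
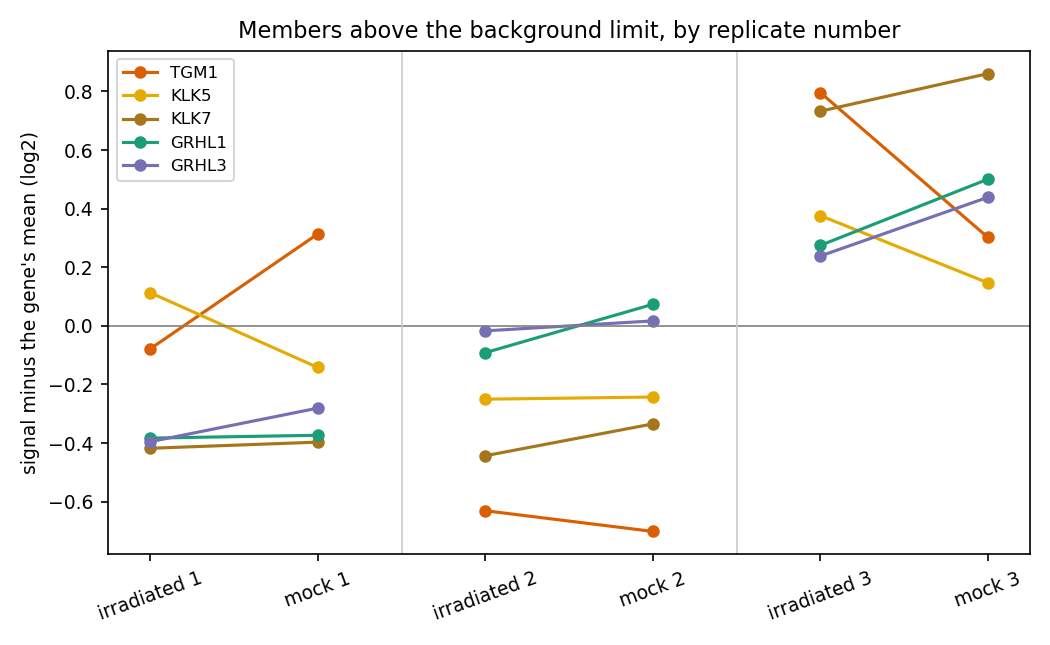
Signal minus the gene's own mean (log2) of the 5 genes above the background limit, with the irradiated array left of the mock array within each replicate number and a line joining the arrays of 1 number. Both number 3 arrays lie above 0 for all 5 genes, GRHL1 and GRHL3 nearly coincide, and TGM1 is lowest in number 2. KLK7 passed the limit only through number 3, and GRHL1 and GRHL3 lay below it in number 1, so their height in number 3 is not independent of the limit. Number 3 had the highest mean in 34.0% of genes above the limit.

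The likeness of profiles was measured as the root mean square distance between values centred on each gene's mean, over 6 arrays. GRHL1 and GRHL3 were 0.061 apart, and GRHL3 ranked 8 of 9323 genes by closeness to GRHL1. The other 9 pairs of the 5 genes were 0.29 to 0.54 apart. Nearest to GRHL1 were TIMM21, a mitochondrial import factor (0.036), HPF1, a PARP cofactor (0.041), and the helicase DDX50 (0.047). Nearest to GRHL3 were HPF1 (0.035), NUBPL, a complex I assembly factor (0.045), and ERCC8, a repair factor (0.046). The median distance over all other genes was 0.38 from GRHL1 and 0.35 from GRHL3. Nearest to the mean profile of the 5 genes were RPL36AL, the protease RHBDL2, the serpin SERPINB5, ACAA2 and IER3IP1, at 0.041 to 0.053. That mean profile stood at 0.48 on the irradiated and 0.45 on the mock array of number 3, and below 0 on all other arrays. Nearness to it thus mostly reflects a shared high number 3. None of the distances was tested, nor was any shared regulation.

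Other genes of the pathway, in 6 lists with 65 of 71 genes matched and 35 above the limit, gave 4 calls in the paired limma test. All 4 were in the list of transglutaminase substrates and corneodesmosome proteins, with 1 of 12 genes above the limit higher and 3 lower, against 1.30% higher and 3.71% lower over all genes tested, and a median difference of 0.027 over those 12 genes, against -0.089. FLG, the filaggrin precursor, rose by 0.50 ± 0.098 (SE, adjusted p = 0.0444), at 10.60, 8.79 and 8.73 in irradiated cultures 1, 2 and 3, against 10.32, 8.08 and 8.23 in mock cultures 1, 2 and 3. DSP, the desmosomal plaque protein desmoplakin, fell by 0.42 ± 0.076 (adjusted p = 0.0360) and KRT1 fell by 0.53 ± 0.11 (adjusted p = 0.0470). On irradiated arrays KRT1 exceeded the limit in number 3 only, and its widest pair difference, -0.83, came from number 2, where the irradiated value of 5.53 lay below the limit. The third decrease, KRT10, the partner keratin of KRT1, was -0.36 ± 0.073 (adjusted p = 0.0470). After quantile normalization FLG was still called (adjusted p = 0.0430), while DSP (0.0538), KRT1 (0.0797) and KRT10 (0.117) were not, and DSP, KRT1 and KRT10 also lost the call without any 1 replicate number. FLG lost it without replicate 2 (0.158) or replicate 3 (0.103), and all 4 lost it in the fit without pairing, with the limit at the median background set (0.0814 to 0.105) and with no limit (0.0888 to 0.116), where the differences themselves are the same. With each array centred, FLG was called (0.0323) and DSP (0.0789), KRT1 (0.0914) and KRT10 (0.110) were not.

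The other 5 lists held no call. The median difference of all genes above the limit, to set beside those of the lists, was -0.089. Other kallikreins had 3 of 6 matched genes above the limit and a median difference of 0.18 over those 3. KLK6, the 1 with the smallest p, lay at 0.20 ± 0.070 (adjusted p = 0.125 in the paired limma test). It was higher in all 3 pairs, as were 9.94% of genes above the limit. Protease inhibitors and activators had 7 of 11 above the limit, with a median of -0.27. PRSS8, the membrane protease prostasin, measured 9.80, 9.73 and 9.44 in irradiated cultures 1, 2 and 3, against 10.04, 10.09 and 9.97 in mock cultures 1, 2 and 3. All irradiated values lay below all mock values, as they did in 7.69% of the 9324 genes above the limit, and the difference of -0.38 ± 0.082 missed the threshold (adjusted p = 0.0525). The remaining Grainyhead and CP2 factors had 3 of 4 genes above the limit and a median of -0.014. GRHL2, the third Grainyhead factor, lay at 10.07, 10.47 and 10.47 in irradiated cultures 1, 2 and 3, against 10.50, 10.60 and 10.72 in mock cultures 1, 2 and 3. It was lower in all pairs, as were 41.9% of genes above the limit, and unlike those of GRHL1 and GRHL3 its groups did not overlap (7.69% of genes). The difference of -0.27 ± 0.085 did not pass (adjusted p = 0.109). Barrier lipid and other cornification enzymes had 5 of 19 above the limit (median -0.0085), ELOVL4, an elongase of very long fatty acids, lying at 0.20 ± 0.078 (adjusted p = 0.155). Late differentiation regulators had 5 of 8 above it (median 0.084), KLF4, a factor of the epidermal barrier, lying at 0.19 ± 0.079 (adjusted p = 0.171).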

How the data were processed

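The authors deposited log2 signals at the gene level, made with RMA per the submitters' processing notes, and at the exon level, with SST-RMA in the column names, per the file headers. As 2995 features present in both tables differed by 0, the gene level may come from SST-RMA too. The gene-level table held 70523 features, 67528 of them transcript clusters, so values of genes need not be among those compared. Tool versions and build: not given in the sources used here. Exon-level signals were used only for that check.

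Genes were named from platform annotation (23781 clusters with 1 symbol, 1543 with several, 42204 with none listed), with symbols updated through RefSeq of GRCh38.p14. The tests used limma 3.58.1 under R 4.3.3 (lmFit, eBayes with a variance trend, two-sided, Benjamini-Hochberg over all features tested, threshold 0.05), with dose and replicate number as terms, after a test on simulated data. Pairing followed the plan to compare irradiated with mock cultures by replicate number, although the labels do not say what a number shares. Correlations of deviations from the group mean were 0.523, 0.644 and 0.705 for arrays of the same number (1, 2 and 3), and -0.555 to 0.0721 otherwise. Deviations within a group cancel out, so low values between different numbers follow in part from the calculation. Alternatives were no block, other scalings, no trend, other signal limits, and arrays or numbers left out. Besides the 10 genes, those named per list were up to 3 called genes with the largest change, otherwise the smallest p, plus the nearest profiles. KRT10, IVL, STS, CASP14, ABCA12, CERS3, KLK13 and DSG1 were chosen after their values were seen. Members, lists, limit and tests were chosen with earlier results of these data known. With so few arrays, precision is limited.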

Additional observations from a re-analysis of the deposited data

How the results depend on the processing

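Over all clusters 0 calls were made under every alternative run (lowest adjusted p from 0.102 to 0.510), so the absence of calls among the 10 genes says nothing about stability. Over genes above the limit, the 467 calls became 0 in the unpaired fit without the replicate block (0 of the 5 genes called), 203 after quantile normalization, 269 with each array centred, 0 with the limit at the median background set and 0 with no signal filter, where more genes were tested, and 66 to 251 with 1 replicate number left out. Increases made up 119 of the 203 and 180 of the 269 calls, against 121 of 467. Of the 10 genes, the 5 above the limit entered every one of these fits and the others only those with a lower limit or none, and no gene of the 10 was called. The cause of the moves after scaling was not tested. The F test of the replicate number made 3104 to 4896 calls with 1 number left out, against 5687, which also removes samples.

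Signs of the dose difference turned for 7 of the 10 genes under some alternative. The fit without the block has the same differences by construction. CDSN turned to -0.071 after quantile normalization, and with each array centred KLK7 turned to 0.013 and ALOX12B to 0.054. With 1 replicate number left out, TGM1 ran from -0.16 to 0.28 and CDSN from -0.084 to 0.14. With 1 array left out of unpaired fits, which lets the spread between cultures in, ranges were -0.33 to 0.39 for TGM1, -0.068 to 0.36 for TGM5, -0.47 to 0.32 for KLK7, -0.12 to 0.013 for ALOX12B, -0.063 to 0.074 for CDSN, -0.35 to 0.083 for GRHL1 and -0.29 to 0.074 for GRHL3. TGM3 (0.21 to 0.39), KLK5 (0.011 to 0.32) and CALML5 (0.10 to 0.33) stayed positive in all of these fits. Signals near or below the background limit bound how well 8 of the 10 genes could be measured.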

Other observations

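Barrier genes outside the 10 did not all follow 1 replicate number. CERS3, the ceramide synthase of very long acyl chains, was highest in number 3, at 7.45, 7.69 and 8.89 in numbers 1, 2 and 3 (means of an irradiated and a mock array), as was KLK13 at 7.31, 6.65 and 8.42. ABCA12, the lipid transporter of lamellar granules, was instead highest in number 1, at 7.56, 6.34 and 6.52, and so was FLG at 10.46, 8.43 and 8.48. All 4 were called by the F test of the replicate number (limma, 61.0% of genes called). CERS3, KLK13 and ABCA12 were chosen after their values were seen, so their calls are not independent of that choice and lend it no support.

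STS, the steroid sulfatase, and CASP14, a protease of filaggrin processing, had means at or below the background limit of 6.01 but exceeded it on both number 1 arrays. CASP14 measured 6.59, 4.20 and 5.07 in irradiated cultures 1, 2 and 3, against 7.46, 4.54 and 4.58 in mock cultures 1, 2 and 3. STS measured 6.63, 5.66 and 5.58 in irradiated cultures 1, 2 and 3, against 7.08, 5.71 and 5.40 in mock cultures 1, 2 and 3. DSG1, a corneodesmosome cadherin, exceeded the limit on number 3 arrays only, at 7.44 in the irradiated and 7.84 in the mock culture, against 4.16 to 4.46 on the other 4 arrays, and IVL, involucrin, reached 10.69 in irradiated and 10.97 in mock culture 3. These genes were chosen after their values were seen, and a cutoff on the mean over 6 arrays left CASP14, STS and DSG1 out of the tests above the limit.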
